A study of Mus musculus with 6 samples.

Results

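The cell cycle genes described here are 39 listed genes, 14 of which are used in S phase and 22 in G2 or mitosis, while *Hmgb2*, *Tubb5* and *Stmn1* were kept apart because no single phase was assigned to them. They were chosen by name, and all 39 were present among the 19178 genes of the 6 count tables. They were followed in cells of small-intestinal crypts, profiled with Drop-seq, a droplet method that tags each cell's polyadenylated RNA with a cell barcode and a molecular identifier (UMI) and counts its 3′ ends. Cells came from mice whose epithelium lacks *Ptger4*, the gene of the prostaglandin E2 receptor EP4 (knockout), and from *Ptger4* flox mice. All mice were C57BL6 and 10 weeks old, without treatment, and each genotype gave 3 collections of droplets from 2 biological replicates. The collection codes were read as collections 1 and 2 coming from biological replicate 1 and collection 3 from biological replicate 2. The Cre driver, the deleted part of *Ptger4* and the number of animals in a replicate were not stated in the labels.

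Cells copy their DNA in S phase, for which the MCM helicase is loaded on chromatin in G1 and PCNA, the sliding clamp, holds the DNA polymerases on the template. In G2 and mitosis, cyclin B with CDK1 drives entry into mitosis, and kinetochore, spindle and chromosomal passenger proteins separate the chromosomes. In the crypt, Lgr5+ stem cells and the transit-amplifying cells above them divide, whereas enterocytes that move up to the villus have left the cycle.

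Of 13191 barcodes, 4890 passed the limits of 300 or more genes and no more than 25% mitochondrial counts. They carried 10807 counts of the S genes, 34290 of the G2/M genes and 19866 of the 3 other genes. Total counts per collection, over all barcodes, ran from 1605533 to 2646093 in knockout and from 1228337 to 3146909 in flox, with medians of 1070 to 1254.5 counts per kept cell in knockout and 1235 to 1471.5 in flox. *Epcam*, a marker of epithelium, was at 1845 to 2341 CPM (UMI counts scaled to the same total per collection) in the knockout and 2017 to 2152 CPM in the flox collections. *Ptger4* had 26, 26 and 59 counts (17.4, 19.1 and 24.5 CPM) in knockout and 36, 14 and 32 counts (11.9, 13.6 and 15.1 CPM) in flox. Each knockout value lay above each flox value, and since only 3′ ends were counted and the deleted part is not known here, these counts do not check the deletion. Collection 3 of both genotypes held *Xist* at 657 CPM in knockout and 687 CPM in flox, against at most 8.08 CPM in the other collections, so biological replicate and sex cannot be told apart. The collections fell into sets that shared 9 to 28 cell barcodes (knockout 1, flox 1 and flox 2 in the first, knockout 2, knockout 3 and flox 3 in the second), and collections of different sets shared 0 to 2.

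S and G2/M genes carried different letters in their promoters. Windows of 300 bases, from 250 before to 50 after the start, were taken from RefSeq (GRCm38.p6) for 34 of the 39 genes and searched on both strands. The motifs were the CCAAT box (CCAAT), the cell cycle homology region (CHR; TTTGAA or TTCGAA), which is bound by the DREAM and B-MYB complexes, and an E2F site (TTTCCCGC, TTTCGCGC, TTTGCCGC or TTTGGCGC). A CHR stood in 14 of 19 G2/M promoters (73.7%) and 1 of 13 S promoters (7.69%), against 19.4% of 27025 promoters. An E2F site stood in 1 of 19 G2/M promoters (5.26%) and 6 of 13 S promoters (46.2%), against 2.32% of all. The CCAAT box was found in 63.2% of G2/M and 53.8% of S promoters and in 37.9% of all. A match describes these letters and not binding. The stretches from 120 bases before to 20 after the start are printed for 3 S genes, 2 of which carry CCAAT boxes beside their E2F sites, and 4 G2/M genes, with every match in capitals. In Mcm6, 2 E2F matches overlap.

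Mcm6 (chr1:128359686-128359825, - strand): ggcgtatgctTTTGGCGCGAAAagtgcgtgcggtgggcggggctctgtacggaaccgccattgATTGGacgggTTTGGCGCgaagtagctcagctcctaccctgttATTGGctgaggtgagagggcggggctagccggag

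Hells (chr19:38930870-38931009, + strand): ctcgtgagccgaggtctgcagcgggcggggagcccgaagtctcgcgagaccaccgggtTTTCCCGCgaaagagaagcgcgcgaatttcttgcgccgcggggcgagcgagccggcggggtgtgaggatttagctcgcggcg

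2810417H13Rik (chr9:65890203-65890342, + strand): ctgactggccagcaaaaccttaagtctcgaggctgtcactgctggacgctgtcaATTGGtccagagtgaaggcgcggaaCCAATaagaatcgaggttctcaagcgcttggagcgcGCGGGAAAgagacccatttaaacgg

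Cdk1 (chr10:69352893-69353032, - strand): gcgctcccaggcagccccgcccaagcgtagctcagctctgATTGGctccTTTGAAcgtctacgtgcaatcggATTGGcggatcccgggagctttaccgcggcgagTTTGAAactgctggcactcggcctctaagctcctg

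Ccnb2 (chr9:70421535-70421674, - strand): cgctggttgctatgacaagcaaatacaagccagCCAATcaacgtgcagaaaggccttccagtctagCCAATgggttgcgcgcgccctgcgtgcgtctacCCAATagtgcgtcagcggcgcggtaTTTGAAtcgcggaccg

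Top2a (chr11:99024170-99024309, - strand): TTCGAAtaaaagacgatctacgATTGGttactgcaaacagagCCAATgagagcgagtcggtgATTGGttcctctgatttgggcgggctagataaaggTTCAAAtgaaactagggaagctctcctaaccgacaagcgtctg

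Mki67 (chr7:135716360-135716499, - strand): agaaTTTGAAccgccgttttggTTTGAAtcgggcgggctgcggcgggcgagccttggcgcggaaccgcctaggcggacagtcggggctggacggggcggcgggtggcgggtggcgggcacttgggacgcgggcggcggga

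The first comparison asked whether the cell cycle genes differ in level when the epithelium lacks *Ptger4*. None of the 39 did by edgeR's quasi-likelihood test on sums per biological replicate, with the Benjamini-Hochberg adjusted p under 0.05 as the threshold. Of all 10555 genes tested, 0.00947% were called. DESeq2 also called 0 of the 39, and 0 of the 39 had an unadjusted p under 0.05, against 2.23% of all genes. The estimates ran from -0.41 to 0.17 on the log2 scale (knockout over flox), with 7 genes above 0 and 32 below. Their median was -0.08 for the S genes, -0.18 for the G2/M genes and 0.02 for the 3 others, beside 0.00 over all genes. Replicates in these tests are 2 sums against 2, and the p-values measure only the spread between these samples.

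**Figure D1:**
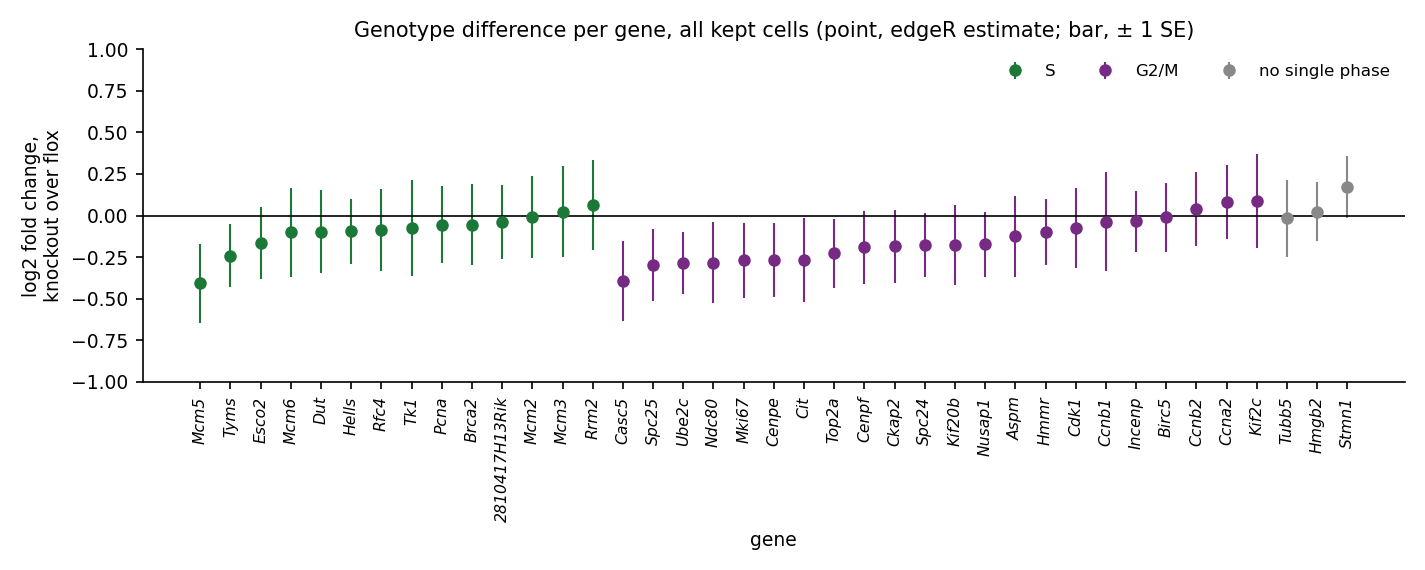
Log2 fold change of each cell cycle gene in knockout over flox, all kept cells; points are edgeR estimates from 2 sums against 2, bars ± 1 SE, coloured by phase. The estimates lie between -0.41 and 0.17, and none passed the test.

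Among the S genes, the replication clamp *Pcna* stood at 247, 170 and 150 CPM in collections 1, 2 and 3 of knockout mice and at 212, 281 and 156 CPM in those of flox mice. *2810417H13Rik*, which encodes the PCNA-associated factor PCLAF, had 202, 232 and 146 CPM in knockout and 214, 196 and 174 CPM in flox. Both ranges overlapped, and for *Pcna* collection 3 was the lowest of each genotype. *Hells*, a chromatin remodelling helicase, had 88.4, 102 and 85.0 CPM in knockout and 115, 104 and 84.4 CPM in flox. *Esco2*, which acetylates cohesin during replication, had 56.3, 53.6 and 43.5 CPM in knockout and 57.6, 46.7 and 59.4 CPM in flox. Again the values of the genotypes interleaved.

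The enzymes of nucleotide supply varied in the same range. *Tyms*, thymidylate synthase, had 57.0, 75.6 and 62.2 CPM in knockout and 87.7, 64.2 and 73.5 CPM in flox, a log2 fold change of -0.24 ± 0.19 (SE). *Dut*, the dUTPase that keeps uracil out of DNA, had 66.3, 68.3 and 45.6 CPM in knockout and 74.2, 76.8 and 48.6 CPM in flox. In both genotypes the third collection held the least *Dut*. *Rrm2*, the small subunit of ribonucleotide reductase, ran from 14.1 to 21.3 CPM in knockout and from 15.1 to 22.4 CPM in flox. *Tk1*, thymidine kinase, overlapped between genotypes as well.

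The MCM helicase subunits held the one gene whose collections did not overlap. *Mcm5* had 26.8, 28.6 and 24.9 CPM in knockout and 40.1, 35.0 and 32.5 CPM in flox. Every knockout value was below every flox value, as was the case for 4.56% of the 6362 genes looked at this way, with 2.0% the other way round. Its log2 fold change of -0.41 ± 0.24 (SE) missed the test (edgeR, unadjusted p = 0.109). *Mcm3* had 42.9, 47.7 and 31.9 CPM in knockout and 46.4, 52.5 and 29.2 CPM in flox, with full overlap. *Mcm2* and *Mcm6* overlapped as well, and so did *Rfc4*, of the clamp loader, and *Brca2*, of recombination repair, at 21.3 to 48.2 CPM over these 4 genes in knockout and 27.8 to 52.7 CPM in flox.

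Among the G2/M genes, *Mki67*, which coats mitotic chromosomes, had 432, 377 and 628 CPM in knockout and 585, 406 and 732 CPM in flox. *Top2a*, the topoisomerase that untangles sister chromatids, had 321, 456 and 527 CPM in knockout and 557, 274 and 606 CPM in flox. In both genes the third collection was the highest of each genotype. The log2 fold changes were -0.27 ± 0.23 for *Mki67* and -0.23 ± 0.21 for *Top2a* (SE). Without knockout collection 3 they were -0.59 and -0.44, and without flox collection 3 -0.01 and -0.04.

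The third collection was the highest of both genotypes for 10 of the 22 G2/M genes. The share of all genes with this order was not counted, so nothing is read from the 10. The kinetochore kinesin *Cenpe* had 213, 191 and 302 CPM in knockout and 286, 220 and 350 CPM in flox. *Cenpf*, another kinetochore protein, had 168, 203 and 274 CPM in knockout and 264, 148 and 300 CPM in flox. The third collection was again the highest of each genotype, and the genotypes overlapped. *Kif20b*, a kinesin of cytokinesis, had 114, 139 and 223 CPM in knockout and 193, 135 and 223 CPM in flox. *Hmmr*, which acts in spindle assembly, had 92.5, 129 and 139 CPM in knockout and 127, 104 and 152 CPM in flox. For *Casc5*, a kinetochore scaffold also called Knl1, with 46.2 to 81.2 CPM in knockout and 62.2 to 115 CPM in flox, the log2 fold change was -0.39 ± 0.24 (SE), which became -0.64 without knockout collection 3 and -0.02 without flox collection 3. Other kinetochore genes had another order, such as *Spc24*, of the NDC80 complex, with 54.9, 104 and 66.7 CPM in knockout and 91.1, 68.1 and 83.4 CPM in flox.

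The chromosomal passenger subunits *Incenp* and *Birc5* did not have the third collection highest in both genotypes. *Incenp* had 140, 145 and 168 CPM in knockout and 176, 124 and 163 CPM in flox. *Birc5* had 104, 155 and 121 CPM in knockout and 163, 127 and 104 CPM in flox. Here the third flox collection was the lowest of its genotype for *Birc5*. *Ube2c*, the ubiquitin-conjugating enzyme of the anaphase-promoting complex, had 103, 155 and 114 CPM in knockout and 161, 118 and 152 CPM in flox, a log2 fold change of -0.28 ± 0.19 (SE). The remaining G2/M genes, which include the cyclins *Ccnb1*, *Ccnb2* and *Ccna2* and their kinase *Cdk1*, lay between 10.1 and 105 CPM in knockout and between 15.1 and 129 CPM in flox, and each overlapped between genotypes.

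The 3 genes with no single phase were spread evenly. *Hmgb2*, a chromatin protein of dividing cells, had 1249, 1400 and 1364 CPM in knockout and 1451, 1245 and 1310 CPM in flox. *Stmn1*, which destabilizes microtubules, had 194, 269 and 206 CPM in knockout and 188, 224 and 201 CPM in flox. *Tubb5*, a beta-tubulin, had 168, 244 and 128 CPM in knockout and 200, 150 and 159 CPM in flox. All 3 overlapped between the genotypes.

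Another 149 genes of the cell cycle were examined beside these, of which 146 could be tested. None was called, 50 had estimates above 0 and 96 below, and their median log2 fold change was -0.09. The smallest p-values below 0 belonged to *Rbl2*, a pocket protein of the DREAM complex, at -0.85, *Melk*, a mitotic kinase, at -0.50 and *Rrm1*, the large subunit of ribonucleotide reductase, at -0.41. Above 0 they belonged to *Ccne1*, cyclin E1, at 0.47, *Orc1*, of the origin recognition complex, at 0.48 and the CDK inhibitor *Cdkn1c* at 0.53. None of these passed the test.

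Summed over the 14 S genes, the level was 993, 977 and 768 CPM in knockout and 1077, 1100 and 829 CPM in flox. Summed over the 22 G2/M genes it was 2237, 2685 and 3149 CPM in knockout and 3282, 2219 and 3536 CPM in flox. The third collection was the lowest of each genotype for S genes and the highest for G2/M genes. Per biological replicate, S genes averaged 877 ± 154 CPM in knockout, against 956 ± 180 CPM in flox (SD, n = 2 each). G2/M genes averaged 2800 ± 494 CPM in knockout, against 3274 ± 371 CPM in flox (SD, n = 2 each). The S difference, -0.12 on the log2 scale, was smaller than the SD between replicates of either genotype. The G2/M difference, -0.23, was smaller than the SD in knockout but larger than the SD in flox. These SDs include a difference between replicates 1 and 2 that both genotypes share. Replicate by replicate, knockout over flox was -0.14 and -0.11 for S genes and -0.30 and -0.17 for G2/M genes in replicates 1 and 2, lower both times; the labels do not pair the replicates. Since the genes were chosen with results known, no p is given for sums over them. Within the barcode-sharing sets the S difference was -0.13 in the first and 0.064 in the second, so its sign did not hold. The G2/M difference was -0.27 and -0.28.

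The share of S counts among S and G2/M counts was 30.7%, 26.7% and 19.6% in knockout and 24.7%, 33.1% and 19.0% in flox. Its mean was 24.1% ± 6.41 for knockout and 22.7% ± 5.28 for flox (SD over 2 biological replicates each), and the difference of 1.43 percentage points was below that spread. The difference became -1.92 points without flox collection 1 and -2.30 points without flox collection 3. Leaving out knockout collection 3 made it 5.97 points, so single collections set its size and sign.

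**Figure D2:**
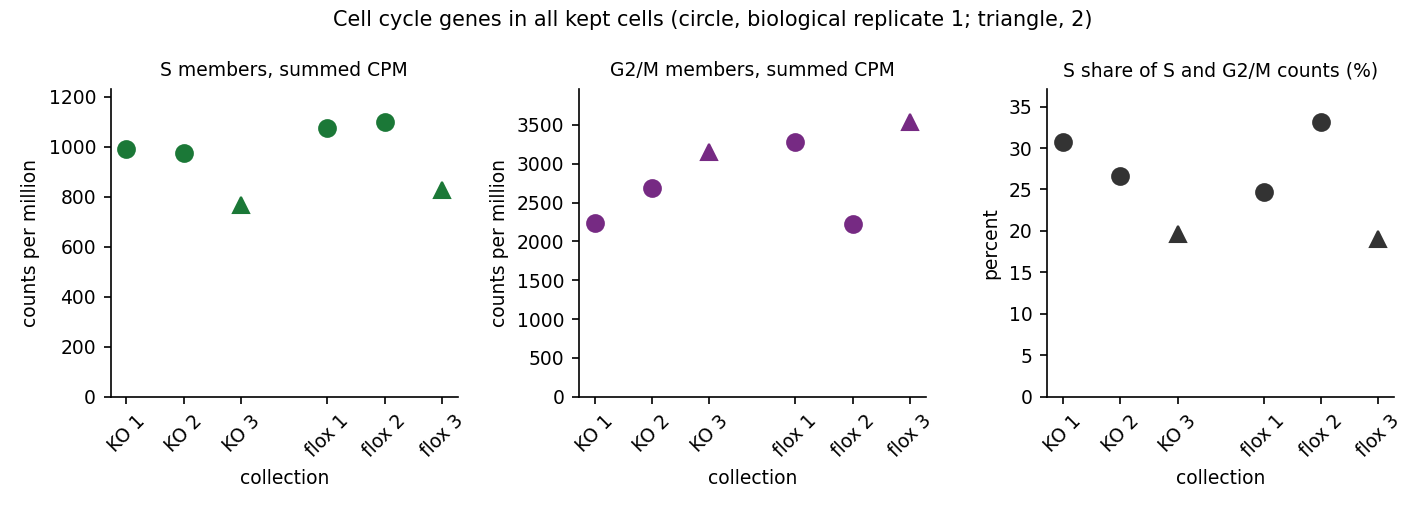
Summed CPM of the S genes and of the G2/M genes and the S share of their counts, per collection, with knockout left of flox; circles are biological replicate 1 and triangles biological replicate 2. Collection 3 has the lowest S level and share of each genotype (19.6% in knockout and 19.0% in flox) and the highest G2/M level.

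The larger contrast was between the biological replicates. In knockout the S share was 19.6% in replicate 2 and 28.7% in replicate 1, and in flox 19.0% in replicate 2 and 26.4% in replicate 1. In stem-like cells it was 20.7% in replicate 2 and 29.6% in replicate 1 of knockout, and 21.3% in replicate 2 and 27.2% in replicate 1 of flox. The order held in both genotypes and within this class. Replicate 2 is 1 collection per genotype, so no test was made.

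This contrast ran with transcript length. The 9 G2/M genes with a longest coding transcript over 4000 bases (GENCODE M21) summed to 2161 CPM in replicate 2 and 1469 CPM in replicate 1 of knockout, and to 2464 CPM in replicate 2 and 1907 CPM in replicate 1 of flox. The 13 shorter G2/M genes stood at 988 CPM in replicate 2 and 982 CPM in replicate 1 of knockout, and at 1072 and 1105 CPM in replicates 2 and 1 of flox. The sums of the longer G2/M genes were higher in replicate 2 of each genotype, with 8 of 9 genes higher, and those of the shorter ones were close. *Brca2*, the S gene with the longest transcript (10724 bases), was higher in replicate 2 by 0.45 in knockout and 0.23 in flox on the log2 scale, whereas *Cdk1*, one of the 9 longer G2/M genes, stood at -0.02 and -0.70. Among the 11 shorter S genes the median was -0.38 in knockout and -0.37 in flox, with 1 of 11 higher in each genotype. The share of all genes higher in replicate 2 was not counted, so nothing is read from the 8 of 9 and the 1 of 11.

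Over the 39 genes, the log2 ratio of replicate 2 to replicate 1 and the log2 transcript length had a Pearson r of 0.69 in knockout and 0.53 in flox. These correlations are across genes that share libraries, and genes are not independent replicates. Over 6063 other genes r was 0.32 in knockout and 0.28 in flox. Among the shorter genes alone the S share was 38.2% in replicate 2 and 45.7% in replicate 1 of knockout, and 38.8% in replicate 2 and 44.6% in replicate 1 of flox, so the S share of replicate 2 was lower there too. What produces the relation with length was not tested.

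**Figure D3:**
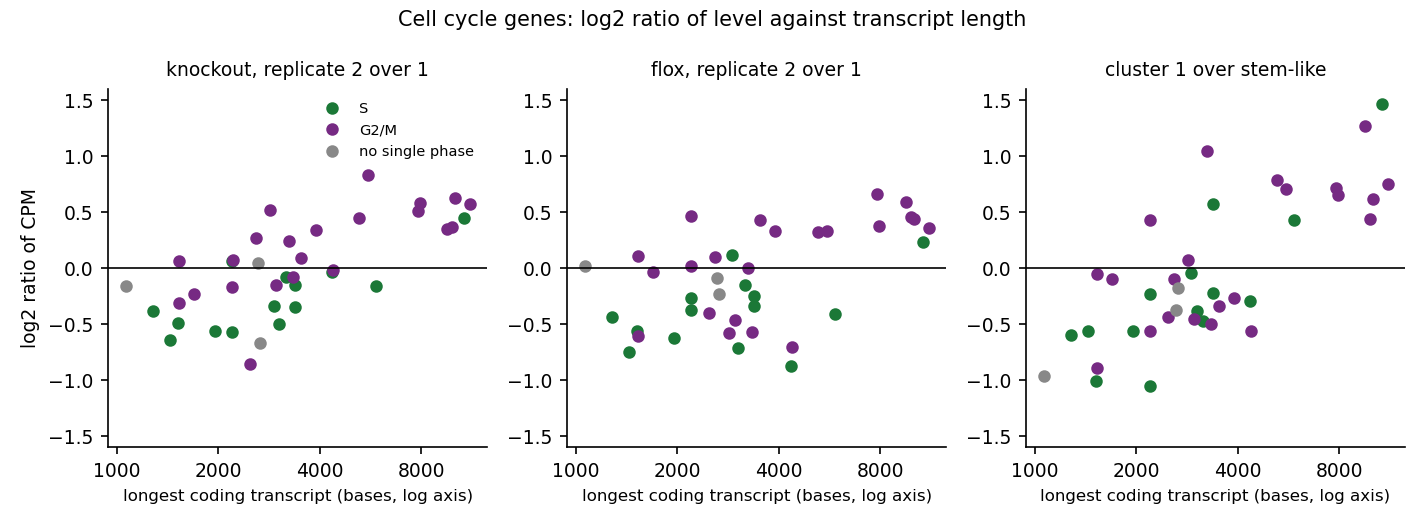
Log2 ratio of CPM in replicate 2 over replicate 1 (knockout, then flox) and in cluster 1 over stem-like cells, against the length of the longest coding transcript (log axis); each point is 1 of 39 cell cycle genes. The ratios increase with length, with r of 0.69, 0.53 and 0.77.

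Cell types were compared next. Cells were clustered without the 39 genes, the 149 others and histone genes, so that these genes did not place the cells, and classes were named from markers. The stem-like class joined clusters 3 and 4, with medians of 3793 and 1100 counts per cell. Cluster 3 (686 cells) was led by *Ascl2* and by cell cycle genes such as *Pbk* and *Cdk1*. Of 18 stem cell markers, 10 were enriched in it. Cluster 4 (640 cells) was led by *Snhg4*, *Olfm4* and *Uhrf1*. Only 3 of the 18 markers were enriched in cluster 4, as many as in unnamed cluster 1, so its name rests on few markers. At a lower clustering resolution, a cluster of 752 cells led by *Olfm4* and *Snhg4* had 2 of 18 and stayed unnamed. Goblet-like cells numbered 706 and enterocyte-like cells 490. Clusters 1, 5 and 7 stayed unnamed, as did cluster 13 with 14 cells (12 knockout, 2 flox), which is not described further. In bulk sums of a class, fewer dividing cells and less RNA per dividing cell cannot be told apart.

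S and G2/M genes were highest in stem-like cells among the 3 large named classes, lower in goblet-like and lowest in enterocyte-like cells. The S genes summed to 1443 CPM in stem-like cells, 552 CPM in goblet-like and 178 CPM in enterocyte-like cells, and the G2/M genes to 4247, 2292 and 198 CPM in the same classes. All 39 genes had a higher mean in stem-like than in goblet-like cells and in goblet-like than in enterocyte-like cells. For all 39, the 4 replicates of stem-like cells lay above the 4 of enterocyte-like cells. For 38, each goblet-like replicate lay above the enterocyte-like cells of the same replicate, *Pcna* being the exception. The share of all genes with these orders was not counted, so nothing is read from the 39 and the 38. In edgeR's fit, blocked on biological replicate, 39 of 39 were called higher in stem-like and 38 of 39 in goblet-like than in enterocyte-like cells, beside 30.5% and 26.0% of the 6783 genes tested. Nothing is read from these counts of calls, since only 3 of the 39 pass the count filter in enterocyte-like cells alone and the others entered the fit through the classes where they are high. Other genes of the fit also defined the clusters.

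**Figure D4:**
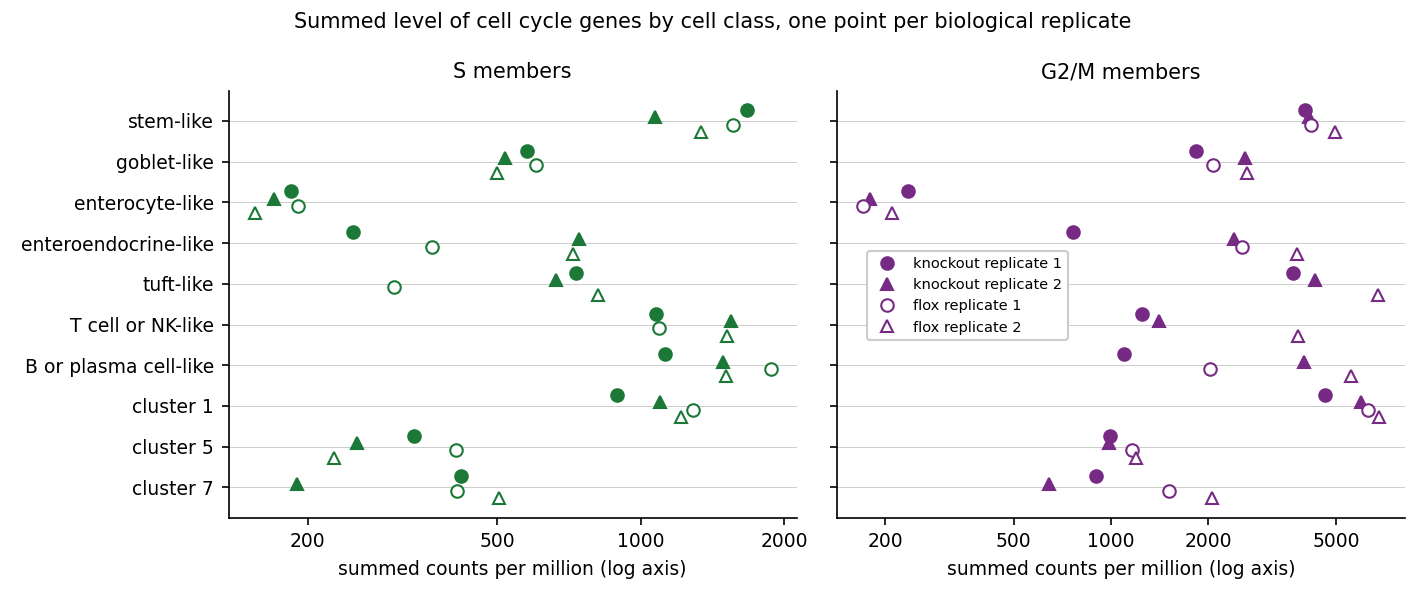
Summed CPM (log axes) of the S genes and the G2/M genes in each cell class or unnamed cluster, 1 point per biological replicate; filled points are knockout and open points flox. Stem-like cells sum to 1443 CPM for S and 4247 CPM for G2/M, and enterocyte-like cells to 178 and 198 CPM.

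*Top2a* averaged 682 ± 104 CPM in stem-like and 22.5 ± 6.32 CPM in enterocyte-like cells, and *Mki67* 778 ± 155 CPM in stem-like and 45.9 ± 8.70 CPM in enterocyte-like cells (SD, n = 4 biological replicates). *2810417H13Rik* averaged 319 ± 67.7 CPM in stem-like and 7.46 ± 2.87 CPM in enterocyte-like cells. The 4 replicates of one class lay apart from those of the other for all 3 genes. Their log2 fold changes were 4.83 ± 0.20, 3.91 ± 0.17 and 5.24 ± 0.25 (SE). No p is given for them, since *Top2a* and *2810417H13Rik* entered the fit through the classes where they are high. For 11 of the 39 genes, among them *Ccnb1*, *Ccnb2*, *Rrm2* and *Hells*, the enterocyte-like cells held 3 counts or fewer in all, so that their fold depends on the prior count.

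*Pcna* stood apart from the other S genes. It averaged 246 ± 54.3 CPM in stem-like and 118 ± 13.8 CPM in enterocyte-like cells (SD, n = 4), a log2 fold change of 0.94 ± 0.15 (SE), the lowest of the 39. In goblet-like cells it averaged 131 ± 4.07 CPM, and its log2 fold change of 0.07 ± 0.17 over enterocyte-like cells did not pass the test (edgeR adjusted p = 0.748). *Pcna* gave 168 of the 248 S counts of enterocyte-like cells. Their S share was 46.9% with it and 22.4% without it. The count tables also list a copy, *Pcna-ps2*, at 30.1 CPM in stem-like and 10.7 CPM in enterocyte-like cells, and reads shared between the copies could be split in counting. In T cell or NK-like cells *Pcna* averaged 723 ± 188 CPM.

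**Figure D5:**
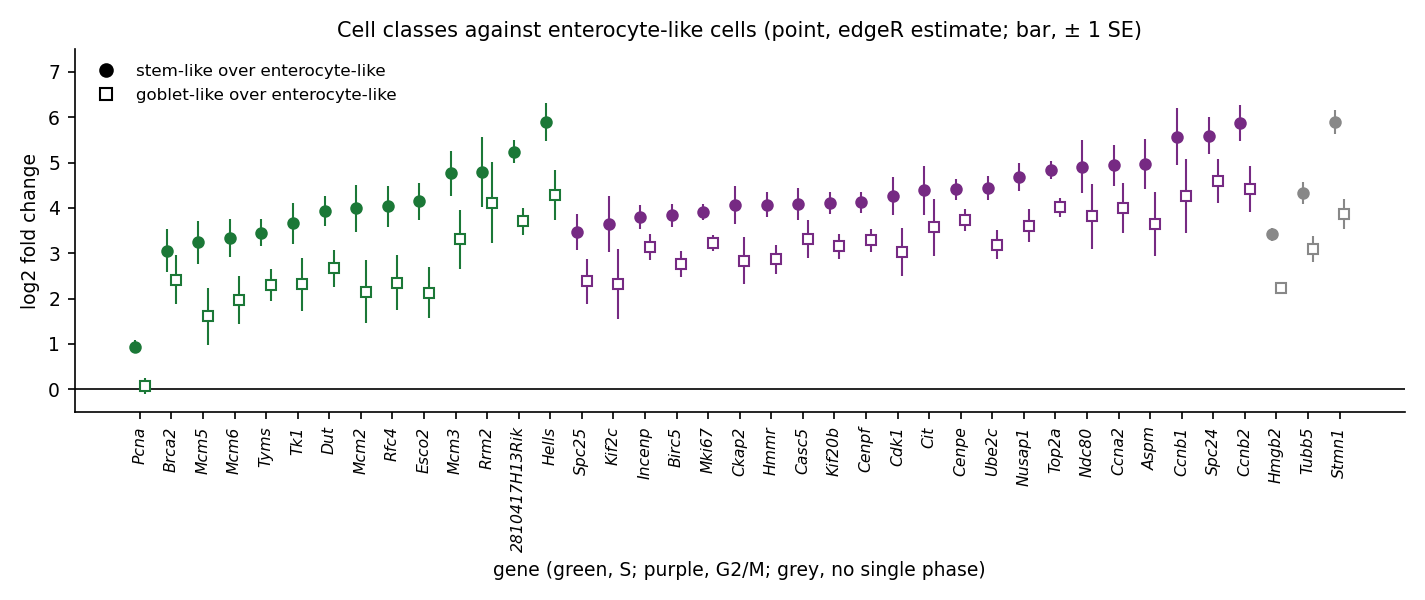
Log2 fold change of each cell cycle gene in stem-like (filled) and goblet-like (open) over enterocyte-like cells; points are edgeR estimates from 4 biological replicates, bars ± 1 SE. *Pcna* is the lowest, at 0.94 and 0.07; for 11 genes with 3 or fewer enterocyte-like counts the height depends on the prior count.

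The balance between phases was also compared between goblet-like and stem-like cells. The S share was 26.2%, 22.4% and 16.6% in knockout and 19.9%, 28.4% and 15.9% in flox goblet-like cells. In stem-like cells it was 28.1%, 30.9% and 20.7% in knockout and 25.6%, 35.2% and 21.3% in flox. Goblet-like cells were lower in 6 of 6 collections. Over the biological replicates the mean was 19.7% in goblet-like and 24.7% in stem-like cells, a difference of -4.95 ± 0.72 percentage points (SD, n = 4). Over members of at most 4000 bases the means were 38.5% in goblet-like and 42.1% in stem-like cells.

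Both clusters of the stem-like class were rich in cell cycle genes. Cluster 4 summed to 1830 CPM for S and 3670 CPM for G2/M genes, and cluster 3 to 1356 and 4376 CPM. The mean S share was 32.6% in cluster 4 and 22.9% in cluster 3, higher in cluster 4 in 5 of 6 collections; in flox collection 2 it was 35.1% in cluster 4 and 35.2% in cluster 3. Since cell cycle genes lead cluster 3, this is a description of the clusters.

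Cluster 1, with 928 cells and a median of 802.5 counts, was led by *Gm26917*, *Gm24187*, *Snord13* and *Rn7sk*, and no marker list named it. Its G2/M genes summed to 5886 CPM, above the 4247 CPM of stem-like cells, and its S genes to 1128 CPM, below their 1443 CPM. Its S share averaged 16.0% against 24.7% in stem-like cells and was lower in 6 of 6 collections. Here too the ratio to stem-like cells ran with transcript length, with r = 0.77 over the 39 genes and 0.50 over 6063 others. Its longer G2/M genes had a median log2 ratio of 0.71, with 8 of 9 above 0, and its shorter ones -0.27, with 3 of 13 above 0.

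The smaller classes held cell cycle counts as well. The sums were 681 CPM for S and 4610 CPM for G2/M genes in 55 tuft-like cells, and 454 and 2055 CPM in 95 enteroendocrine-like cells. In tuft-like cells the G2/M sum ran from 606 CPM in flox replicate 1 (10 counts) to 6739 CPM in flox replicate 2 (298 counts, 13 cells). B or plasma cell-like cells (237) stood at 1554 and 2242 CPM, and T cell or NK-like cells (150) at 1204 and 1106 CPM. In T cell or NK-like cells the G2/M sum ran from 416 CPM in flox replicate 1 to 3805 CPM in flox replicate 2. Paneth-like cells were 27 in number, with 264 and 610 CPM. Unnamed cluster 5, led by *Akr1c19*, *Reg3g* and *Reg3b*, is larger, with 600 cells, and stood at 327 and 1082 CPM. The named classes of this paragraph have few cells, and no order among them and cluster 5 was tested.

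Within classes the genotype made no difference that passed the test. In stem-like cells 0 of 39 genes were called (0.146% of 8201 genes), in goblet-like cells 0 of 34 that could be tested (0.0163% of 6128) and in enterocyte-like cells 0 of 3 (0.0219% of 4568). DESeq2 called 0 in each of these classes. At an unadjusted p under 0.05 there was 1 in goblet-like cells, *Mcm2*, with a log2 fold change of 1.46, and 0 in stem-like cells (2.79% of all genes) and enterocyte-like cells (4.49%). *Mcm2* had 20.5 and 21.1 CPM in the knockout and 7.03 and 7.96 CPM in the flox replicates of that class, which do not overlap but rest on 29 counts in all. Of all genes tested in goblet-like cells, 1.76% had such a p.

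Sums of the S, G2/M and other genes and the S share were looked at in all kept cells and in 12 classes or clusters, some of which share cells. Of these 52 comparisons, 7 had no overlap between the collections of the genotypes, and none was tested further. Among 6362 single genes in all kept cells, 4.56% lay without overlap lower in knockout and 2.0% higher. How many of the 52 would separate without a genotype effect was not worked out, since they share cells and genes. Nothing is therefore read from the 7, which are listed as a description. Cluster 7 was led by *Mptx2*, a Paneth cell gene, and *Ceacam20*. Its G2/M genes had 911, 890 and 643 CPM in knockout and 1708, 1284 and 2062 CPM in flox. Each knockout collection was below each flox collection. The knockout sums rest on 35, 23 and 27 G2/M counts from 113 cells, and the flox sums on 166, 109 and 127 counts from 149 cells. In enteroendocrine-like cells the S share ran from 17.1% to 40.0% in the knockout and from 9.09% to 16.1% in the flox collections, which do not overlap but hold 95 cells in all. The S genes ran from 852 to 1100 CPM in the knockout and from 1218 to 1451 CPM in the flox collections of cluster 1. In B or plasma cell-like cells they ran from 871 to 1491 CPM in the knockout and from 1508 to 2202 CPM in the flox collections, on 27 to 59 S counts in knockout and 34 to 121 in flox. The others were the S share of cluster 7, at 22.9% to 36.4% in knockout and 19.6% to 21.6% in flox, and the summed *Hmgb2*, *Tubb5* and *Stmn1* of clusters 4 and 7.

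How often a cell shows a cell cycle gene depended on its depth. Within each collection, cells were ordered by count and split into 3 equal groups, for all kept cells and again for stem-like and for goblet-like cells. The groups of all kept cells had medians of 630, 1274 and 3490.5 counts. In them, 36.1%, 50.1% and 75.0% of cells had a UMI of an S gene. The level itself moved less, at 905, 904 and 961 CPM for S and 3240, 2873 and 2999 CPM for G2/M genes. In stem-like cells the S share was 30.9% in the shallowest group, 26.8% in the middle one and 24.3% in the deepest, and the deepest group was below the shallowest in 5 of 6 collections. That class joins cluster 4 (median 1100 counts, S share 32.6%) and cluster 3 (3793 counts, 22.9%), so depth and cluster cannot be told apart. In goblet-like cells the collections had no common order, with the deepest group above the shallowest in 3 of 6. Over all kept cells the S share went the other way than in stem-like cells, at 21.8%, 23.9% and 24.3%. There the deepest group was above the shallowest in 6 of 6 collections. Depth and cell class cannot be told apart there either, as cluster 1, at a median of 802.5 counts, had a share of 16.0%.

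At a fixed depth of 500 UMIs per cell, which 4603 cells reached, 30.1% of cells (95% exact Clopper-Pearson interval 28.7% to 31.4%) had an S UMI and 49.4% (47.9% to 50.8%) a G2/M UMI. Without thinning, the shares were 53.7% and 64.6% of all kept cells. In stem-like cells the thinned shares were 50.4% for S and 71.1% for G2/M, and in goblet-like cells 18.8% and 42.9%. Enterocyte-like cells, which should lack dividing cells, had 9.04% and 9.45%. The S value is no background for S genes in general, since *Pcna* alone was seen in 6.16% of these cells. Intervals cover counting error only. Their median depth was 1859 counts, against 1980.5 in stem-like cells. By gene, *Mki67* was seen in 30.2% of stem-like and 2.46% of enterocyte-like cells, *Top2a* in 23.5% and 0.616%, *2810417H13Rik* in 14.6% and 0.411%, and *Pcna* in 13.1% and 6.16%. The genotypes overlapped, with an S UMI in 28.7% to 29.9% of cells in the knockout and 28.7% to 36.3% in the flox collections.

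S and G2/M counts did not divide the cells into separate sets. Among 2966 cells thinned to 1000 UMIs, 4.52% had at least 3 S UMIs alone, 29.2% at least 3 G2/M UMIs alone and 7.05% both, where 4.19% would have both if the 2 were unrelated. In stem-like cells 13.3% had both, against 12.9% if unrelated. In enterocyte-like cells 3 of 389 passed for G2/M alone and 0 for S. The threshold cuts a range, as 829 of the cells lay at 2 or 3 UMIs of one phase or the other.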

How the data were processed

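Each deposited file holds raw UMI counts, as whole numbers, with genes against barcodes; the authors made them from Drop-seq reads. The aligner was STAR 2.6 and the genome mm10, as named in the submitters' processing notes. No source used here names the annotation, the UMI collapsing or the rule for listing barcodes.

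The 39 members, the other lists and the markers were chosen with earlier results of these data known. Barcodes with at least 300 genes and at most 25% counts of genes starting with mt- were kept, with no upper limit on counts, and doublets were not removed. Cells were scaled, and 2000 variable genes gave 30 principal components, a graph of 15 neighbours and Leiden clusters at resolution 1 (leidenalg 0.10.2), leaving out 256 cell cycle and histone genes. A cluster was named when at least 3 markers of a class were 1.5-fold enriched in it and detected in 10% of its cells, and 2 were among its top 10 genes or 50% of the measured markers were enriched. Cluster 7 met this for Paneth cells but was left unnamed because its leading genes go against the name. Counts were summed per biological replicate (2 per genotype) and tested with edgeR 4.0.16 (quasi-likelihood, TMM, filterByExpr at a minimum count of 10, two-sided, Benjamini-Hochberg at 0.05), in classes with at least 20 cells in each sum. CPM uses all counts of the same cells. CPM of 3′ UMIs is not scaled by length, so levels are compared within a gene or a fixed sum. DESeq2 1.42.0, no filter, collections as samples, other barcode filters and clusterings, and leaving out each collection were tried. The edgeR steps were tested on simulated data. Named genes were the 7 S, 9 G2/M and 3 other members with the highest mean CPM, any member past the test and, among the 149 other genes, the 3 with the smallest p per direction; other members were named after their values were seen.

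The labels tie no number to a shared litter, batch or day, and same-numbered collections did not all deviate together, so numbers were not used as a block between genotypes. Biological replicates did deviate together across genotypes, with a correlation of 0.37, and differed in *Xist*. The unblocked test leaves this shared difference in its spread. With biological replicate as a block, 0 of the 39 were called, and 2 had an unadjusted edgeR p under 0.05. Over all 10555 genes, 448 had such a p with the block and 235 without. Class sums of a replicate share that replicate's cells and were blocked. Which collections share a replicate was read from the sample codes.
Promoter windows are from RefSeq and transcript lengths from GENCODE M21. The barcode-sharing sets, the length split and the values without *Pcna* were added after seeing the data.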

Additional observations from a re-analysis of the deposited data

Results flagged for a closer look

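Barcodes under 100 counts were not used in the comparisons. The 3763 such barcodes held S genes at 645 CPM and G2/M genes at 2260 CPM, above the level that a count of 0 allows (12.8 CPM) and beside 945 and 2998 CPM in kept cells. Such barcodes numbered 29 in knockout collection 3 and 14 in flox collection 1, and 2119 in flox collection 2.

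The summed CPM of *Hmgb2*, *Tubb5* and *Stmn1*, most of it *Hmgb2*, lay on opposite sides in the genotypes of 2 clusters, without a test of single genes. In cluster 4, all knockout collections (3139 to 3263 CPM) lay above all flox collections (2812 to 3098 CPM), a log2 difference of 0.13, and in cluster 7 all knockout collections (452 to 755 CPM) lay below all flox collections (779 to 1009 CPM), a log2 difference of -0.68. Both separations are among the 7 of 52 comparisons without overlap described above, from which nothing is read. The difference between the clusters was not tested.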

How the results depend on the processing

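No cell cycle gene was called between genotypes under any alternative run, in all kept cells or within classes. Unadjusted p-values under 0.05 in all kept cells appeared for 3 genes without knockout collection 3, 1 without knockout collection 2, 2 with biological replicate as a block, 1 (*Casc5*, -0.54) with the barcode-sharing set as covariate and 2 (*Cdk1*, -0.80, and *Kif2c*, -1.01) within the first set. Same-numbered collections had correlations of deviations of -0.18, 0.06 and 0.41 (0.37 for the biological replicates, which also differ in *Xist*), and 2 of 6 correlated best with their own number. Blocked on biological replicate number, the differences were -0.12 for the S level, -0.23 for the G2/M level and 1.43 points for the S share. The calls in stem-like over enterocyte-like cells were 39 of 39, and 36 of 36 tested with collections as samples; most of the genes enter only through stem-like cells, so this is no sign of stability. Leaving out 1 collection, the S level ran from -0.32 to 0.057 (positive without knockout collection 3), the G2/M level from -0.41 to -0.012 (without flox collection 1) and the S share from -2.30 to 5.97 points (negative, at -1.92, without flox collection 1 and at -2.30 without flox collection 3). Within the second barcode-sharing set, an alternative chosen after seeing the data, the S level was 0.064. *Top2a* ran from -0.44 without knockout collection 3 to 0.05 without flox collection 1, *Casc5* from -0.64 to -0.02, *Mki67* from -0.59 to -0.01 and *Cenpe* from -0.55 to -0.05. With 1000 instead of 500 UMIs, 44.4% of cells had an S UMI and 60.5% a G2/M UMI. Why these values moved was not tested.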
